A study of Homo sapiens with 6 samples.

Results

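The zinc finger genes of chromosome 19 were examined for sites of ZNF469, itself a zinc finger protein, in LX-2 cells. Members were the protein-coding GENCODE genes on chromosome 19 whose symbol is ZNF followed by digits alone, which gave 240 of the 1476 protein-coding genes on this chromosome and of 20007 in all. CUT&RUN, in which an antibody tethers a nuclease that cuts out the chromatin around its target, was done with anti-ZNF469 in LX-2, an immortalized line of human hepatic stellate cells, the liver cells that make scar collagen. The cells carried a piggyBac transgene under a doxycycline-inducible promoter for HA-tagged full-length ZNF469 or for dZF-ZNF469, which lacks most of the zinc fingers. All cells were grown with 2-Phospho-L-ascorbic acid and received doxycycline at 1 ug/mL for 24 h, so both groups were induced and no uninduced group was analysed here. The labels call the dZF group clone3.1 and the full-length group clone3.4. Each construct was in its own line, and construct and line cannot be told apart. ZNF469 was overexpressed in both groups, and a peak list cannot show whether the cells kept their stellate markers.

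Each group had 3 libraries that the authors merged into 1 list of bound regions, 19108 for full-length ZNF469 and 54 for dZF-ZNF469. No value per library was available, so no replicate error could be given and full-length and dZF lists were not tested against each other. Of the full-length regions, 449 (2.35%) lay on chromosome 19, as did 4 of the dZF regions. The pileup, the number of fragments stacked at the summit of a region, had a median of 20 (quartiles 16 and 27) over the full-length list. The range in parentheses after a single pileup is its exact 95% Poisson interval, for counting error alone. A gene without a region is a gene where no record passed the authors' filters, and its signal is not known.

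Most zinc finger genes of chromosome 19 arose by repeated tandem duplication and stand in clusters along both arms. Many encode a KRAB domain, which recruits the corepressor TRIM28 and through it the methyltransferase SETDB1, and a run of C2H2 fingers that reads DNA and is encoded almost wholly by the last exon. The 3′ ends of these genes are known to carry the histone mark H3K9me3, which is laid down with the help of ZNF274, and their promoters are usually rich in CpG.

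Sequences around the summits of 7 regions of members are shown first because they stand for the positions compared below: promoters (ZNF574, ZNF253 and ZNF93), the upstream start of the ZNF584 gene record, introns (ZNF507 and ZNF665) and the fingers of a last exon (ZNF404). They were chosen after their values were seen. ZNF574, ZNF584, ZNF507 and ZNF404 had the highest member pileup of their position, and ZNF253, ZNF93 and ZNF665 did not. They are from hg38 and read 5′ to 3′ on the strand of the gene. Capitals mark the GC box GGGCGG, the CCAAT box CCAAT or the AP-1 motif TGANTCA on either strand, except in ZNF404, where they mark codons for the cysteines and histidines that hold zinc in its fingers.
ZNF574, chr19:42075881-42076001, plus strand: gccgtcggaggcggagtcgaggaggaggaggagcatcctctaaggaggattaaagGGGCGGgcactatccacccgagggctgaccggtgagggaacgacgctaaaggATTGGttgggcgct
ZNF584, chr19:58401261-58401381, plus strand: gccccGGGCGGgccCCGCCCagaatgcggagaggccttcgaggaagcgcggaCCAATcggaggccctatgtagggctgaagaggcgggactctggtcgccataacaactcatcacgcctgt
ZNF253, chr19:19865730-19865850, plus strand: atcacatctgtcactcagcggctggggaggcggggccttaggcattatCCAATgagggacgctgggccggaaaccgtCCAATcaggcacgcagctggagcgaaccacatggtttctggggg
ZNF93, chr19:19900340-19900460, plus strand: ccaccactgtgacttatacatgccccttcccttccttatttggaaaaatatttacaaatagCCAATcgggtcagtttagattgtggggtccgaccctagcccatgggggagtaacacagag
ZNF507, chr19:32373875-32373995, plus strand: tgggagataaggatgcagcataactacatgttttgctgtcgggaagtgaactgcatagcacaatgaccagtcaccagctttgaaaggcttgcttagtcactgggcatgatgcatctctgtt
ZNF665, chr19:53183250-53183370, minus strand: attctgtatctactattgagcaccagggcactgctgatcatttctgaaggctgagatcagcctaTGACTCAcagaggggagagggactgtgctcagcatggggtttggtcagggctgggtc
ZNF404, chr19:43873060-43873180, minus strand: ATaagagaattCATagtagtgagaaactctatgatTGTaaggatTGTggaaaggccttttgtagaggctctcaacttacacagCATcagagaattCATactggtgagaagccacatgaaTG
The ZNF574 and ZNF584 stretches, at 62.8% and 66.1% GC, held a GC box and a CCAAT box each. The ZNF253 and ZNF93 stretches, at 61.2% and 47.1% GC, held the CCAAT box but no GC box. The ZNF665 stretch held an AP-1 motif, and the ZNF507 stretch held none of these motifs.

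A full-length region lay in the gene body or the 3 kb upstream of 37 of the 240 members (15.4%, 95% Wilson interval 11.4 to 20.5). Over all protein-coding genes this share was 36.9%. Of the other 1236 protein-coding genes on chromosome 19, 367 had a region (29.7%, 27.2 to 32.3), so the share of members was lower by 14.3 percentage points (difference −14.3, 95% Newcombe interval −19.1 to −8.6). These intervals treat genes as independent, which neighbours that share a region or a cluster are not. The 236 protein-coding genes named ZNF and digits on other chromosomes had a region in 77 cases (32.6%, 27 to 38.8), a difference of −17.2 points from the members (−24.6 to −9.58). Genes with the same kind of name thus had a lower share on chromosome 19 than on the other chromosomes, with an interval that excluded 0. The other 27 zinc finger symbols on chromosome 19, such as ZFP and ZSCAN genes, had a region in 2 cases (7.41%), and the interval of their difference from the members spanned 0 (8.01 points, −8.45 to 15.4).

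No dZF region lay in the window of any of the 240 members, where the share over all protein-coding genes was 0.06%. A count of 0 of 240 allows a share of up to 1.25% (3 counts), and the whole list holds only 54 regions.

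Most members with a region had a single one. Of the 37, 7 had 2 regions and none had 3 or more. Among the 367 other chromosome 19 genes with a region, 68 had 2 or more and 12 had 3 or more. The shares with 2 or more were thus alike on this chromosome. Over all protein-coding genes they were higher: of 7377 with a region, 2763 had 2 or more and 1290 had 3 or more. The other 203 members had none. In total 41 regions met member windows, in 44 pairs of gene and region, since 3 regions were shared by a pair of neighbouring members: ZNF490 with ZNF791, ZNF146 with ZNF565, and ZNF432 with ZNF841. The first 2 of these pairs met at a promoter of both genes. Another 12 regions lay also in the promoter of a gene that is no member, such as FIZ1 beside ZNF524, DEDD2 beside ZNF526 and VRK3 beside ZNF473, so the regions cannot be given to the members alone. Member windows spanned 7.99 Mb and held 5.13 regions per Mb, against 11.8 per Mb over the windows of the other chromosome 19 genes. Over the windows of all protein-coding genes the density was 8.9 per Mb.

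**Figure D1:**
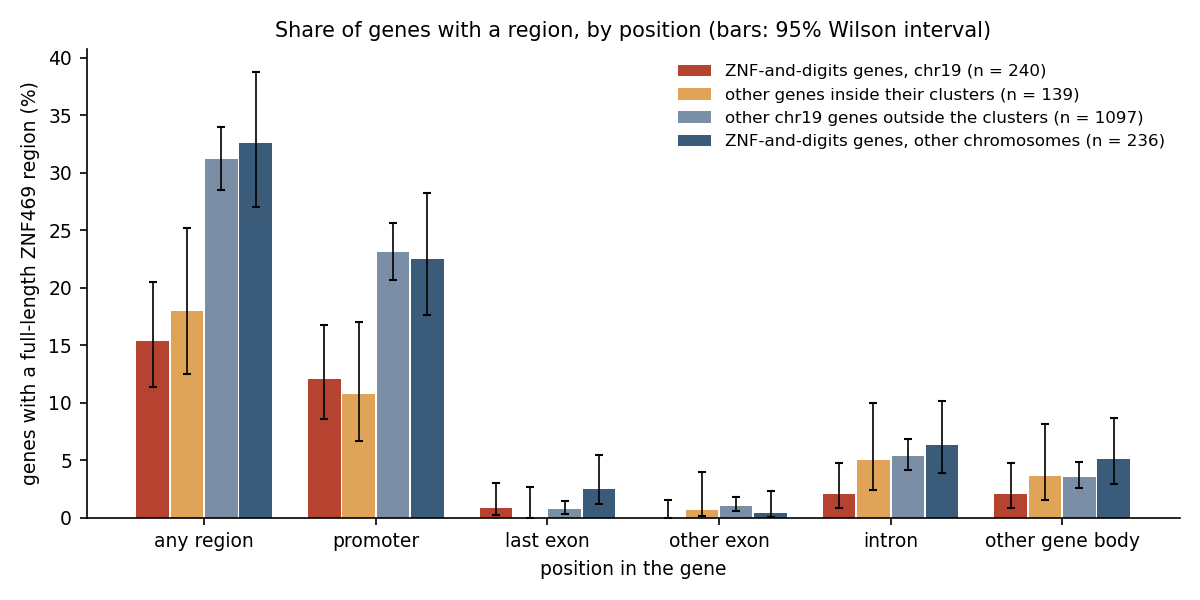
Percent of genes with a full-length ZNF469 region, at any position and by position in the gene, for the 240 members, the 139 other genes inside their clusters, the 1097 other chromosome 19 genes outside the clusters and the 236 ZNF-and-digits genes of other chromosomes. Bars are shares and lines are 95% Wilson intervals: members (15.4%) and the genes between them (18%) lie below the genes outside the clusters (31.2%), and last exons are low in every group.

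By position, promoters held most member regions. A region within 3 kb of the start of the canonical transcript was found in 29 members (12.1%), beside 21.5% of all protein-coding genes and 268 of the 1236 other genes on chromosome 19 (21.7%), a difference of −9.6 points (−13.9 to −4.38). An intronic region away from the promoter was found in 5 members (2.08%), beside 15.8% of all protein-coding genes and 66 other genes on the chromosome (5.34%), a difference of −3.26 points (−5.09 to −0.333). A last-exon region away from the promoter was found in 2 members (0.833%), beside 1.41% of all protein-coding genes and 8 of the other chromosome 19 genes (0.647%). The difference for last exons, 0.186 points, had an interval from −0.683 to 2.36 that included 0. No member had a region in another exon, beside 0.971% of the other genes on the chromosome and 1.86% of all protein-coding genes, and the interval of the difference from the chromosome 19 genes (−1.69 to 0.658 points) included 0. In 5 members a region lay elsewhere in the window, outside the canonical transcript (other gene body, 2.08%), beside 3.56% of the other chromosome 19 genes and 4.78% of all protein-coding genes. The difference of −1.48 points from the chromosome 19 genes had an interval of −3.16 to 1.37 that included 0.

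Counted over regions, 30 of the 41 were in the promoter class (73.2%, 58.1 to 84.3), beside 225 of the 346 regions of the other chromosome 19 genes (65%). Over all protein-coding genes 4011 of 11976 regions were in this class (33.5%). The intronic class held 5 of the 41 (12.2%), beside 90 of the 346 (26%) and 52.6% over all protein-coding genes. A high promoter share and a low intronic share were thus found at the other chromosome 19 genes too. Most summits were close to the start: 26 of the 41 lay within 1 kb of it, and among the 30 promoter regions 24 summits lay upstream, at a median of −122 bp (quartiles −222 and −43.2). The plot of summits by distance shows this concentration just upstream of the start.

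**Figure D2:**
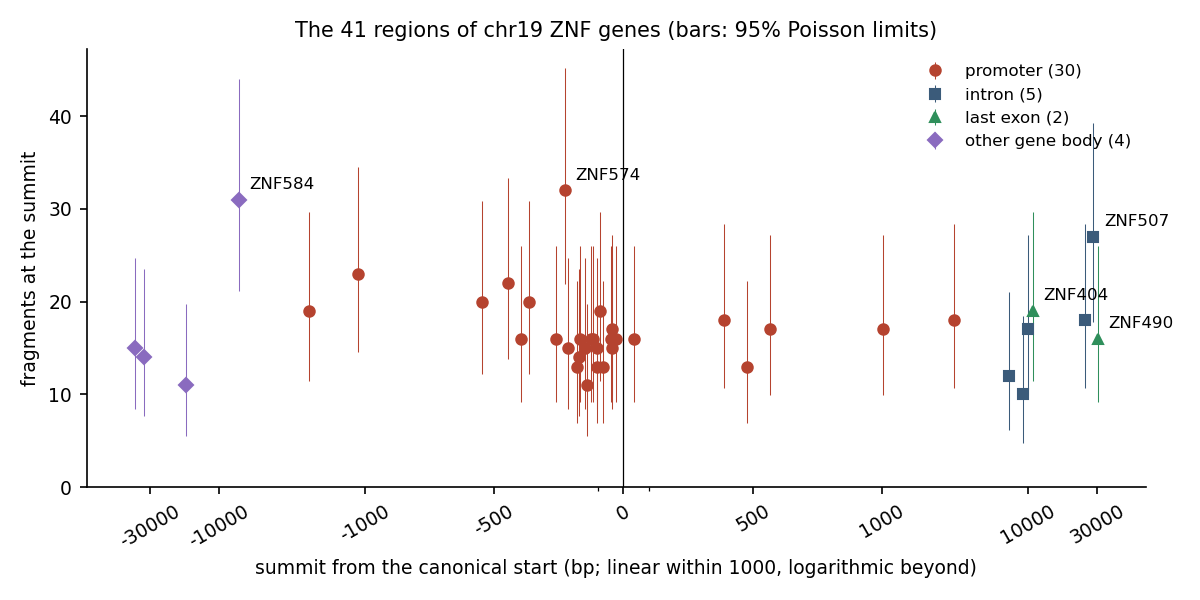
Number of fragments at the summit against its distance in bp from the canonical transcription start for the 41 regions of members, by position class (the scale is linear within 1 kb and logarithmic beyond). Points are regions and lines are exact 95% Poisson limits: 26 summits lie within 1 kb of the start, and ZNF574, ZNF584 and ZNF507 have the highest counts.

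Member regions had a lower median pileup than regions of the other chromosome 19 genes. The median pileup was 16 (quartiles 15 and 18, range 10 to 32), beside 19 (15 and 24, up to 69) at the regions of the other chromosome 19 genes. Regions of the other genes inside the member clusters, 26 in all, had the same median pileup as the members, 16. These are in part the same regions as those of members, so the equal medians are not independent. The local background, the number of fragments the peak caller expected, had a median of 1.05 at member regions, 1.22 at regions of the genes between them and 1.44 at regions of all other chromosome 19 genes. The fold enrichment, pileup over background with 1 added to each, had a median of 7.8 at member regions and 7.76 at regions of all other chromosome 19 genes. By fold 13 of the 41 (31.7%) were in the upper 25% of all full-length regions, but by pileup only 3 were, those of ZNF574, ZNF584 and ZNF507. The lowest background of the list, 0.865 fragments, was found at 6 of the 41 member regions (14.6%), at 26 of the other 408 regions on the chromosome (6.37%) and at 3.14% of all full-length regions. The part of this lower background in the counts of regions was not tested.

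ZNF574 had the highest pileup of any member, 32 fragments (21.9 to 45.2) at 12.6-fold over background, at chr19:42075765-42076151, 225 bp upstream of its start. Its place among all 19108 full-length regions by pileup was 2549. ZNF584 came next with 31 fragments (21.1 to 44) at 14.2-fold, the highest fold of any member, at chr19:58401199-58401783. That region, in rank 109 of the list by fold, lay 7328 bp upstream of the canonical start and met the first base of the longer gene record, and a second region of 15 fragments at 7.92-fold lay 104 bp upstream of the canonical start itself. ZNF507 had 27 fragments (17.8 to 39.3) at 8.82-fold in an intron, 28.3 kb into the gene. The limits of these 3 pileups overlap, so counting error alone does not set an order among them.

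ZNF524, whose product has been described at telomeres, had regions of 23 and 22 fragments, 1118 and 447 bp upstream of its start, both also in the promoter of FIZ1. ZNF576 and ZNF93 had 20 fragments each, ZNF576 364 bp upstream of its start beside IRGQ and ZNF93 546 bp upstream, at 8.42-fold and 9.22-fold. ZNF253 had 19 fragments at 10.7-fold, 92 bp upstream, over the lowest background of the list. ZNF526 had 19 and 16 fragments, 2405 and 167 bp upstream, both also in the promoter of DEDD2. ZNF414 had 18 fragments at 8.82-fold, 387 bp downstream of its start. All of these regions were promoter regions, and their Poisson limits overlap widely.

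Further members stood out by fold rather than by pileup. ZNF627 had 17 fragments at 9.49-fold 44 bp upstream of its start, and ZNF547 had 16 fragments at 9.11-fold 119 bp upstream, in a promoter it shares with TRAPPC2B. ZNF230 had 17 fragments at 8.96-fold 566 bp downstream of its start, and ZNF846 had 16 at 8.92-fold 39 bp downstream. ZNF665 had 17 fragments at 8.87-fold in an intron, 10 kb into the gene, where its sequence held the AP-1 motif. With 16 or 17 fragments over a background near 1 fragment, such folds rest on small counts.

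The other 21 members with a region had between 10 and 18 fragments at 5.46 to 8.73-fold. Among them ZNF77, ZNF146, ZNF416, ZNF443, ZNF473, ZNF497, ZNF564, ZNF565, ZNF575, ZNF653, ZNF699, ZNF765, ZNF787, ZNF791 and ZNF837 had it in the promoter. ZNF473 acts in the processing of histone transcripts, and ZNF146 encodes little more than fingers. ZNF546 had a promoter region of 15 fragments and an intronic one of 10, the lowest count of any member. ZNF440 and ZNF841 had theirs in an intron, and ZNF254, ZNF432 and ZNF875 elsewhere in the window. The Poisson limits of the highest of these counts, 18 fragments (10.7 to 28.4), overlap those of ZNF574 and of the stronger ZNF584 region.

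The last exon encodes the finger array: of 3004 C2H2 fingers counted in the members, 98.5% were encoded there. Only ZNF404 and ZNF490 had a region in it. In ZNF404 the region of 604 bp, with 19 fragments (11.4 to 29.7) at 7.16-fold, lay wholly in coding sequence of exon 3, the last, and met 8 of the 14 fingers. In ZNF490 the region of 259 bp, with 16 fragments (9.15 to 26) at 8.97-fold, met the end of the coding part of exon 5, with 102 coding bases and 2 of 13 fingers. It lay also in the promoter of another annotated gene, ENSG00000269693. Finger arrays resemble each other between genes, so the share of sequence that a read can place was measured. The median share of 51-base words in the last exon that occur once in the genome was 96.7% in members (lowest 37.1%). In the other chromosome 19 genes it was 100% (lowest 0%). For promoters the medians were 94.3% (lowest 72.2%) in members and 94.4% (lowest 0.85%) in the other genes.

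Of 11 members chosen for their known roles, 1 had a region, beside 37 of all 240 (15.4%), and the small count allows no comparison. The 1 was ZNF93, a repressor of LINE-1 elements. None was found at ZNF91, a repressor of SVA elements, at ZNF274, at the imprinted ZNF331, or at ZNF350, also called ZBRK1. ZNF224, ZNF43, ZNF85, ZNF114, ZNF382 and ZNF568 had none either. The 5 longest members without a region were ZNF536 (489 kb), ZNF675 (162 kb), ZNF98 (141 kb), ZNF420 (123 kb) and ZNF83 (96.5 kb). ZNF536, a regulator of neuronal differentiation, is thus a long gene that stayed empty in the list, although longer windows more often held a region among other genes.

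Longer genes offer more sequence for a region, so members were compared with other genes by window length. Members had longer windows than the other chromosome 19 genes (median 28.5 and 17 kb). Among windows under 15 kb, 10 of 40 members had a region (25%) and 119 of 530 genes without a zinc finger symbol (22.5%). From 15 to 30 kb the counts were 9 of 91 members (9.89%) and 110 of 344 others (32%). From 30 to 60 kb they were 12 of 81 (14.8%) and 94 of 245 (38.4%). Over 60 kb they were 6 of 28 (21.4%) and 42 of 90 (46.7%). The shares of members were lower in the 3 longer bins and close to the others in the shortest.

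**Figure D3:**
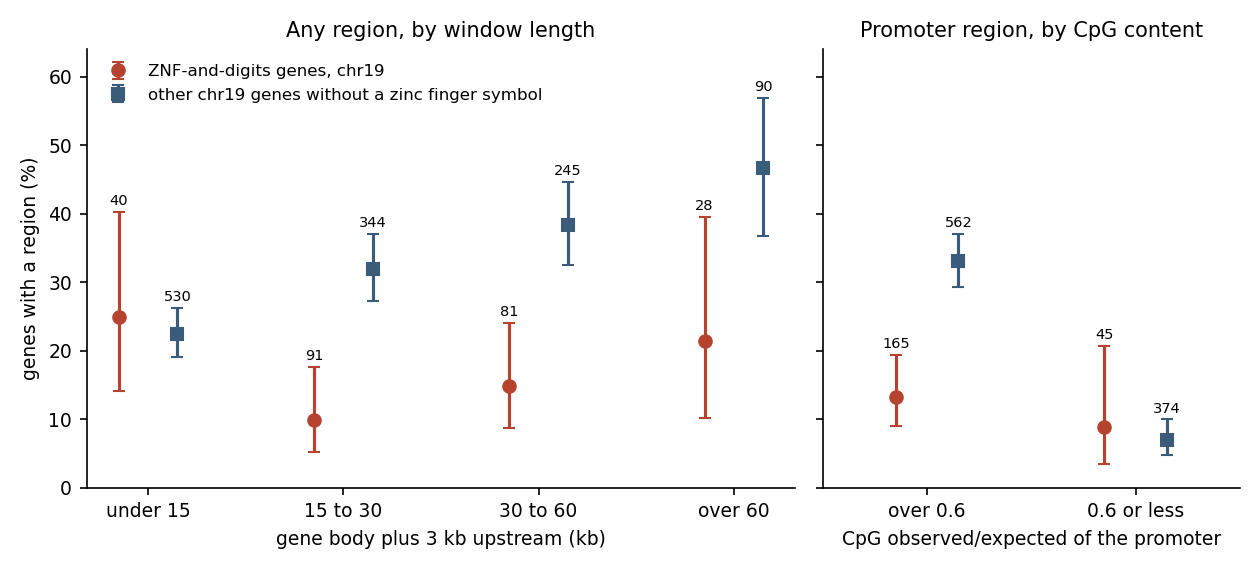
Left, percent of genes with a full-length region by the length of gene body plus 3 kb upstream. Right, percent of genes with a region in the promoter by CpG observed/expected of the promoter sequence, with members as circles, other chromosome 19 genes without a zinc finger symbol as squares, 95% Wilson intervals as lines and the number of genes above each: among CpG-rich promoters 13.3% of members and 33.1% of the others had a region.

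Promoter sequences of RefSeq on GRCh38.p14, 250 bases before to 50 after the start, matched 210 of the 240 members. Their CpG content, as observed over expected, had a median of 0.765 in members and 0.737 in the other genes without a zinc finger symbol, and 78.6% and 60% were above 0.6. Above 0.6, 22 of 165 members had a region in the promoter (13.3%, 8.97 to 19.4), beside 186 of 562 others (33.1%, 29.3 to 37.1). At 0.6 or less the counts were 4 of 45 members (8.89%) and 26 of 374 others (6.95%), whose intervals overlap. The lower share of members was thus found among CpG-rich promoters.

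Short motifs were counted on both strands in these promoters, with shares over all 15345 matched protein-coding promoters for comparison. The ETS motif CCGGAAG was in 93 of the 210 member promoters (44.3%), beside 13.5% of the other 957 on the chromosome and 14.4% of all. Within the members it was in 8 of 26 promoters with a region (30.8%) and in 85 of 184 without (46.2%). The CCAAT box was in 52.9% of member promoters, in 37.9% of the others on the chromosome and in 36.6% of all. Within the members it was in 13 of 26 promoters with a region and in 98 of 184 without. The GC box GGGCGG was in 69.5% of member promoters, close to the 66.1% of the others on the chromosome, and in 59.2% of all.

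In windows of 300 bp centred on the summits member promoter regions were set beside other promoter regions. The GC box was in 24 of the 30 member promoter regions (80%), in 165 of 213 other promoter regions on chromosome 19 (77.5%) and in 60% of all promoter regions. The AP-1 motif TGANTCA was in 5 of the 30 (16.7%), in 11.7% of the other promoter regions on chromosome 19 and in 17.2% of all promoter regions. It was also in 5 of the 11 member regions away from promoters, for which other regions of that class were not counted. Over all full-length regions of any class AP-1 letters were in 50.1% and the GC box in 17.6%. The ETS letters, frequent in member promoters at large, were in 7 of the 30 (23.3%). They were in 15% of the other promoter regions on chromosome 19 and in 14.4% of all promoter regions. A match gives letters only, and whether a factor binds there was not tested.

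The number of fingers was similar with and without a region. Members with a region encoded a median of 12 fingers (quartiles 8 and 15) and those without 12 (9.5 and 15). Among members with 6 to 10 fingers 10 of 71 had a region, with 11 to 15 fingers 14 of 104, and with 16 or more 9 of 52. The genes with the longest arrays, ZNF208 with 36 fingers, ZNF729 with 34 and ZNF91 with 31, had none. In the small group of up to 5 fingers 4 of 13 had a region (30.8%, 12.7 to 57.6), an interval that holds the other shares.

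Members formed 20 clusters when neighbours less than 500 kb apart were joined, of which 8 held 10 or more members and 218 of the 240 together. In those 8 clusters 31 members had a region, and 6 of the 22 members elsewhere did. The 20 clusters spanned 15.8 Mb and held 59 full-length regions (3.73 per Mb), beside 390 regions over the remaining 42.6 Mb of sequenced chromosome 19 (9.15 per Mb), a length that includes modelled centromeric sequence. Other protein-coding genes inside the clusters also had a low share: 25 of 139 had a region (18%, 12.5 to 25.2). The difference between members and these neighbours was −2.57 points, with an interval of −10.8 to 4.94 that includes 0. Both sets were in part counted from the same regions: 16 of the 41 member regions lay also in another gene's window. In only 3 of these 16 was the other gene a second member. Of the 1097 other genes outside the clusters 342 had one (31.2%). Within the clusters a difference between zinc finger genes and their neighbours was thus not shown. Shared regions count on both sides, so this comparison could not settle whether they differ.

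**Figure D4:**
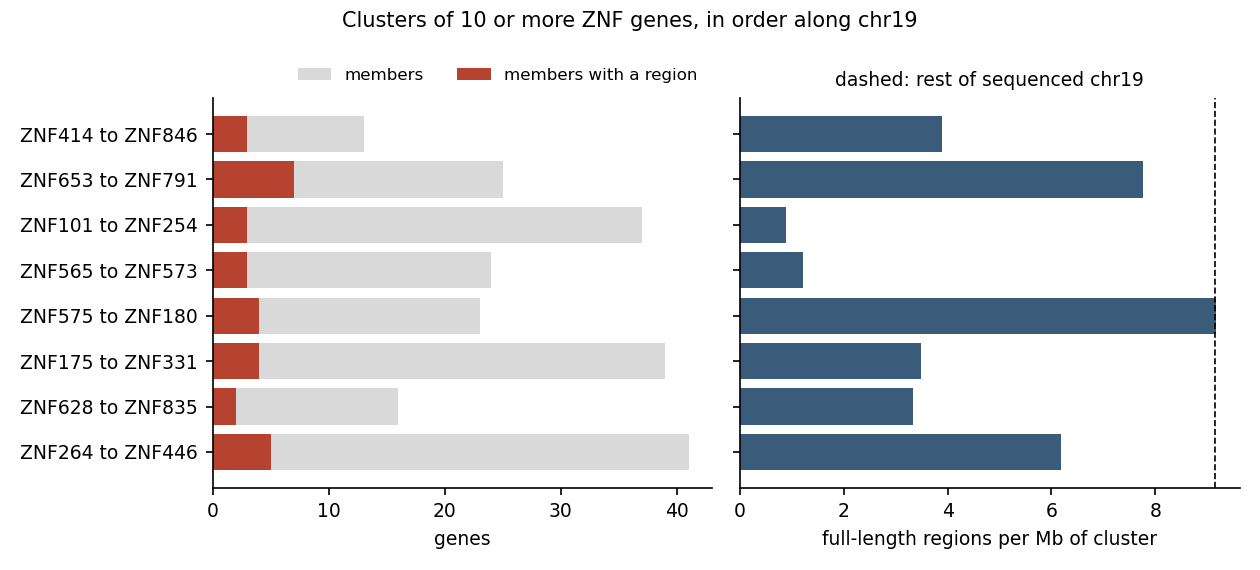
The 8 clusters of 10 or more members in their order along chromosome 19, each named by its first and last member. Left, the number of members (grey) and of members with a full-length region (red). Right, full-length regions per Mb of the cluster, with the rest of the sequenced chromosome (9.15 per Mb) as a dashed line: the cluster from ZNF101 to ZNF254 is lowest at 0.896 per Mb.

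The clusters were unlike each other in density. The cluster from ZNF101 to ZNF254 beside the centromere, 4.46 Mb with 37 members, held 4 regions (0.896 per Mb), and 3 of its members, ZNF253, ZNF93 and ZNF254, had one. The cluster from ZNF565 to ZNF573, 1.64 Mb with 24 members, held 2 regions (1.22 per Mb), 1 of them shared by ZNF146 and ZNF565. By contrast 7 of the 25 members from ZNF653 to ZNF791 had a region (28%), at 7.76 regions per Mb. The cluster from ZNF575 to ZNF180 reached 9.17 regions per Mb, close to the rest of the chromosome, with 4 of 23 members (17.4%). In the cluster from ZNF264 to ZNF446 near the end of the long arm 5 of 41 members had a region (12.2%), all in the promoter. From ZNF175 to ZNF331 4 of 39 members had one (10.3%), 1 of them in the promoter. No test was made of differences among clusters, where each count is small.

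Although no dZF region met a member, 3 of the 4 on chromosome 19 lay in a cluster of members, the one from ZNF565 to ZNF573, between ZNF383 and ZNF875. They lay 20.4, 16.3 and 15.3 kb from the window of ZNF875 and had 43 (31.1 to 57.9), 30 (20.2 to 42.8) and 18 (10.7 to 28.4) fragments at 22.7, 14.8 and 11.1-fold. None overlapped a full-length region or any annotated exon. The first and the third of the 3 are shown on the plus strand of hg38, all in lower case, because they repeat each other.
chr19:37289299-37289465, plus strand: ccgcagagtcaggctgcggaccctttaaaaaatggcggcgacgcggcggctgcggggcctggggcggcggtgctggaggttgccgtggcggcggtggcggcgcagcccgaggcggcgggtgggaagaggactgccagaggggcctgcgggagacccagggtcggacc
chr19:37294368-37294518, plus strand: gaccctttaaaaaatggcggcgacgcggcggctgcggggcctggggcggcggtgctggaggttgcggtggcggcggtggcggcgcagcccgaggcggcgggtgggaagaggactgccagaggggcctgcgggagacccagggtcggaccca
Their starts were 5069 bp apart, and 148 of 149 aligned bases were identical (99.3%). Of 51-base words in these 3 regions only 41.9%, 31.5% and 32.5% occur once in the genome, so reads could be shared among copies and the pileup of each is uncertain. The 41 full-length regions of members, in comparison, had a median of 100% unique words and a lowest value of 92.7%. The fourth dZF region on the chromosome, with 14 fragments at 8.09-fold, lay in the window of DNMT1, outside its canonical transcript. DNMT1 is a DNA methyltransferase gene and no member.

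A separate list of 20 genes held KRAB corepressors such as TRIM28 and SETDB1 together with other chromatin silencing factors. Of the 20, 14 had a full-length region (70%), 12 in the promoter, beside 36.9% and 21.5% over all protein-coding genes. TRIM28, itself at the end of the long arm of chromosome 19 and no ZNF symbol, had 19 fragments at 8.74-fold in its promoter. SETDB1 had 34 fragments at 12-fold, MTA2 33 at 11.5-fold and HDAC1 25 at 11-fold, all in promoters. MTA2 and HDAC1 are parts of the NuRD deacetylase complex. CBX5, which encodes HP1 alpha, a reader of H3K9me3, had 4 regions with up to 40 fragments. The others with a full-length region were ATF7IP, CBX1, CBX3, CHD3, CHD4, HDAC2, MTA1, UHRF1 and MPHOSPH8. DNMT1, ATRX, DAXX, TASOR, PPHLN1 and MORC2 had no full-length region. This list was short and chosen by function with earlier results of these data known. Its share is therefore only a description of these 20 genes.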

How the data were processed

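CUT&RUN with anti-ZNF469 was done on 6 libraries of LX-2, 3 per construct, which the authors combined per construct and filtered by irreproducible discovery rate (IDR) into 1 peak list each. Bowtie2 2.3.4.3 and MACS2 2.2.5 are named in the submitters' processing notes, with build hg38. A control library is not given in the sources used here. The deposited lists hold, per record, a fold enrichment over the local background, a −log10 p-value and the summit position. Depth per library is unknown. The pileup was recovered as the whole number that explains both deposited values (within 0.001 in −log10 p), which succeeded for 100% of records, and the recovery was tested on simulated records.

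A record was counted for a gene when it overlapped the GENCODE version 44 gene body plus 3 kb upstream by at least 1 bp. Position was the first that applied of promoter (within 3 kb of the canonical start), last exon, other exon, intron and other gene body, by any overlap of the region. Shares have 95% Wilson intervals and differences Newcombe intervals. No test was run, since genes are not replicates and each group has 1 list. Fingers were counted in the translated canonical coding sequence, in place of the planned RefSeq proteins, by a C2H2 pattern with 12 residues between the pairs. KRAB boxes were not used here. Genes named were the 10 highest members by pileup and by fold, members with a last-exon region, the 5 longest without a region and 11 with known roles; others are named to account for every member, and ZNF208 and ZNF729 after their values were seen. Clusters joined members less than 500 kb apart. Motifs were chosen after seeing the data. Members and lists were chosen with earlier results of these data known. Alternatives covered list stringency, overlap, symbols, shared regions, window, promoter size, transcripts and comparison genes. Python 3.11.15, pandas 2.3.3, numba 0.67.0 and Biopython 1.88 were used.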

Additional observations from a re-analysis of the deposited data

How the results depend on the processing

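Of 68 values of the main results under the alternatives, 47 moved by less than their interval and 21 moved further. Among the 68 were 10 values chosen after seeing the data. Only the difference between members and other genes could change sign, and it stayed negative under every alternative. The other results, shares, a median and a count, cannot be negative. The count of 0 members with a dZF region could not rise in a shorter list. Of 64 region counts of named members, 41 stayed the same and 23 moved, 16 of the 64 being chosen after seeing the data. ZNF404 and ZNF526 had no region left in the upper 50% by fold, and ZNF524 and ZNF576 had none left in the upper 25%. In the upper 25% by pileup only ZNF574, ZNF584 and ZNF507 of the named members kept a region. In the upper 50% of regions by fold, 10.4% of members, 19.9% of other chromosome 19 genes and 8.33% of member promoters had a region. In the upper 25% by fold these were 5.42%, 12.9% and 3.75%, with a difference of −7.53 points and 0.833% of members with an intronic region. Among other genes, the share was 22.3% with each region given to its nearest start, 24.1% without the 3 kb upstream and 33.8% at like window length. In the upper 25% by pileup (added), 1.25% of members and 5.5% of others had a region (difference −4.25). By position this was 0.417% of members in the promoter, 0% in the last exon and 0.417% in an intron. Only 3 member regions remained, so the promoter class of 33.3% of regions (6.15 to 79.2) rests on 3. Their median pileup of 31 follows from selecting by pileup. Against other genes inside the clusters (added, 18%) the difference was −2.57 points, in part over the same regions. A stricter list holds fewer regions by construction, and the cause of the other shifts was not tested. No paired analysis was possible because each group has 1 pooled list and no value per library, so no library could be left out either.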

Other observations

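The ZNF-and-digits genes of other chromosomes had a region in the promoter in 22.5% of cases, in an intron in 6.36% and in the last exon in 2.54%, and their windows held 9.66 regions per Mb. Of their matched promoters 80.9% had CpG observed/expected above 0.6, close to the 78.6% of the chromosome 19 members.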
